A study of Mus musculus with 2 samples.

Results

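Protease inhibitor genes were followed in 2 single-cell RNA libraries of live CD45+ cells, which are leukocytes, sorted from tumors of the mouse melanoma line B16. The 8 genes, chosen by name from the 31253 features of the count tables, were Serpinb2, Serpinb6a, Serpinb6b, Serpinb9, Serpina3g, Serping1, Slpi and Spint1. Wild-type mice had first been given irradiated B16 cells that secrete GM-CSF as a vaccine on the left flank. After 12 days they received B16 cells on the right flank, which carried either a control hairpin RNA (the shRFP library) or a hairpin that targets Sdc1 (the shSdc1 library). Sdc1 encodes syndecan-1, a proteoglycan of the cell surface. Another 16 days later, 6 tumors per group were pooled into 1 library. Both groups shared the vaccine and the wild-type host, and the genotype given for shSdc1 is a knockout although its title names a hairpin.

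The comparison asks which leukocytes of a vaccinated host use which inhibitor, and whether that differs with syndecan-1 in the tumor cells. With 1 library per group there was no test across conditions. Every interval below is an exact 95% interval that covers counting error and not the spread between tumors or mice. The kept cells numbered 4983 in shRFP and 5313 in shSdc1, with 3848717 and 4014220 UMIs (unique molecules counted) and a median of 649 and 593 UMIs per cell. The libraries shared 17 barcode sequences, which were counted as separate cells. Levels are given as CPM, UMIs of the gene per 1000000 UMIs of the cells named. Because 3′ counting gives each gene its own capture rate, CPM was compared between cells and libraries but not between genes.

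Serine protease inhibitors restrain enzymes that cut proteins outside the cell, in granules and in lysosomes. Serpins do so as bait: the protease cuts an exposed loop and is trapped on the inhibitor. Clade B serpins such as Serpinb2, Serpinb6a, Serpinb6b and Serpinb9 stay largely inside the cell, where they guard against a cell's own granule enzymes, while Slpi is a small secreted inhibitor of the whey acidic protein family and Spint1 a membrane protein with Kunitz domains. In tumors these proteins are known for roles in fibrinolysis, in protection from granzymes and in limiting inflammation.

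The inhibitor genes divided the leukocytes among themselves. In shRFP most UMIs of Serpinb2 and Slpi, and many of Spint1, lay in inflammatory monocyte/macrophage clusters. Serpinb6a belonged to mature macrophage clusters and T cells, Serpina3g to T and NK cells, and Serpinb6b with Serpinb9 to migratory dendritic cells (DC) and NK cells. In shSdc1, however, conventional DC 1-like cells had Serpina3g at 182 CPM, close to the 185 CPM of T-like cells. Of the 8 genes, 7 had at least 50 UMIs in both libraries together. Over all kept cells Serpinb2, Slpi and Spint1 were at least 1.5-fold lower in shSdc1, Serpina3g, Serpinb6a and Serpinb6b at least 1.5-fold higher, and Serpinb9 in between. Thus 3 of 7 were lower against 4.8% of the 9162 genes with that many UMIs, and 3 of 7 were higher against 12.0%. The median log2 ratio was 0.34 for the members and 0.12 for all these genes, and hides that the members lay on both sides. The members were chosen with earlier results of these data known, so counts above these shares cannot be read as a trait of the family.

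**Figure D1:**
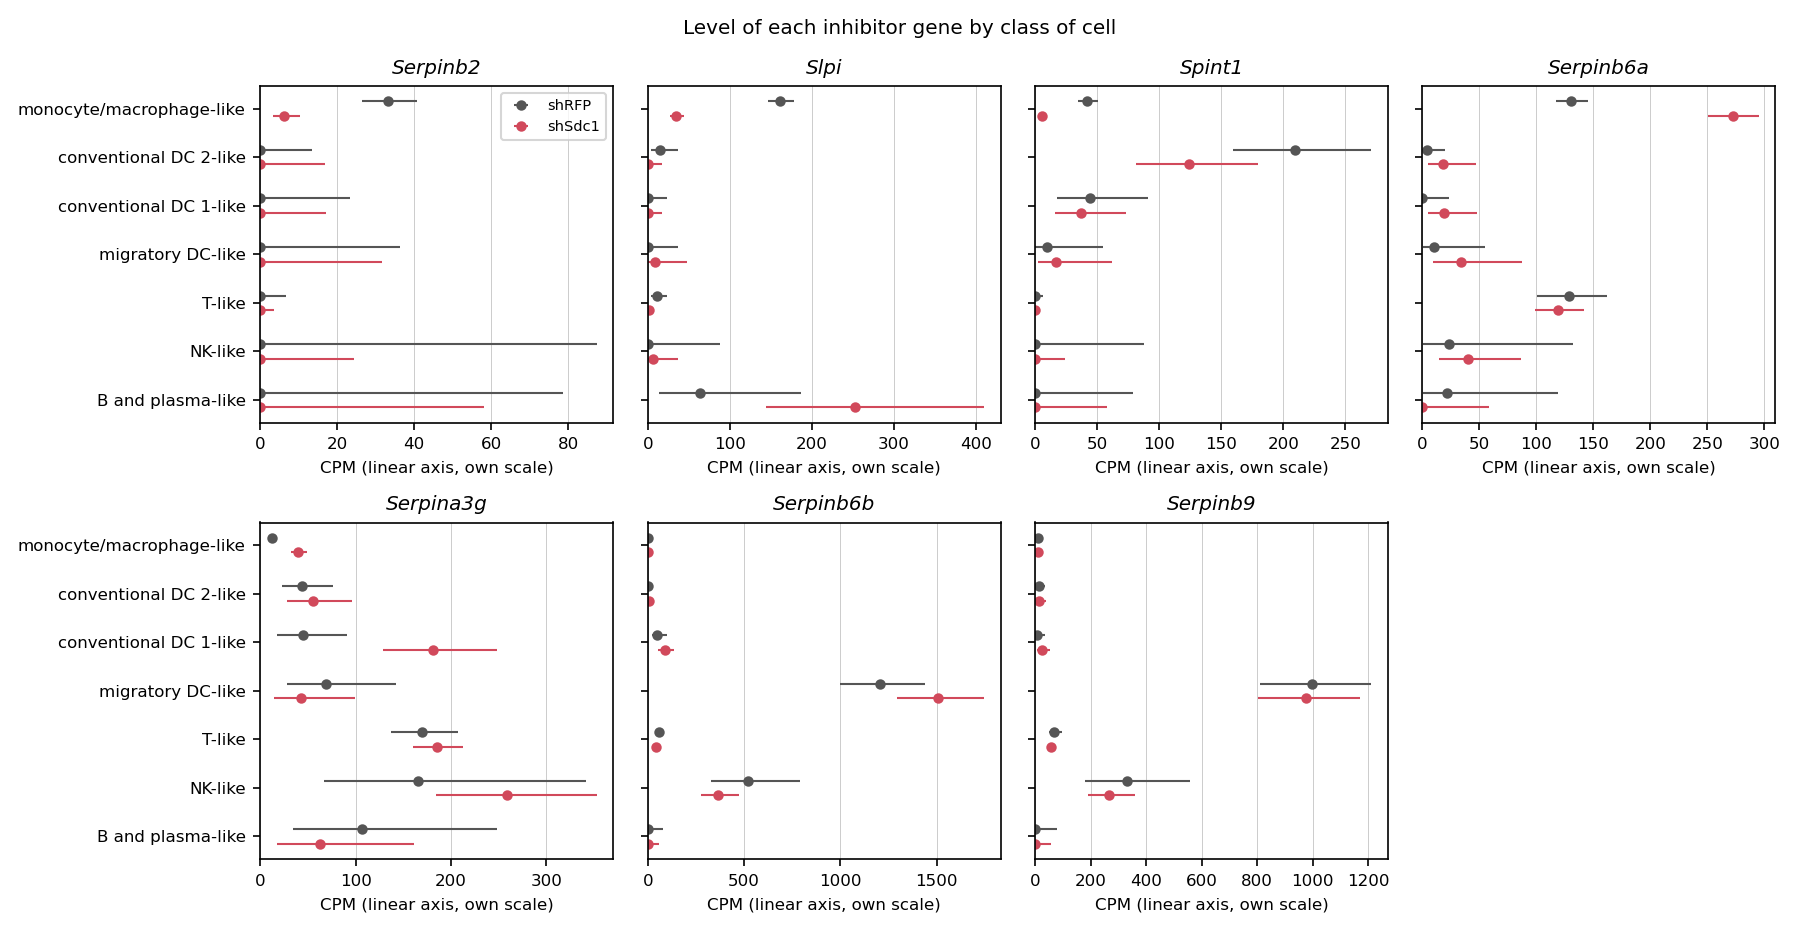
CPM of each inhibitor gene (horizontal axis, linear, with its own scale per panel) in 7 classes of cells, for shRFP (grey) and shSdc1 (red); bars are exact 95% Poisson intervals for counting error, and the 2 classes with under 100 cells in all are left out. Serpinb6b and Serpinb9 stand highest in migratory DC-like cells, Spint1 in conventional DC 2-like cells, and Serpinb2 has UMIs in the monocyte/macrophage-like class and in none of the others shown.

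Cells were clustered without any inhibitor or protease gene of the lists used here, so their levels had no part in making the 17 clusters, and clusters were named by marker genes. The monocyte/macrophage-like class held 62.1% of the cells in shRFP and 49.7% in shSdc1, and T-like cells held 21.4% and 32.7%. Within the monocyte/macrophage-like class the libraries were filled by different clusters. Cluster 2, led by Inhba, Il1a and Cxcl1, had 834 and 235 cells, and cluster 5, led by Hp, Chil3 and Ifitm6, had 581 and 100. Cluster 0, led by the complement genes C1qa and C1qc and by Stab1, had 685 and 1370 cells, and cluster 3, led by Ctsk and Gpnmb, had 427 and 547. Ratios over a class therefore combine the level within clusters with the mix of clusters. A second ratio gave every cluster the same weight in the 2 libraries. It takes out the mix between these clusters, but not differences of mix inside a cluster.

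Serpinb2, also called plasminogen activator inhibitor 2, blocks urokinase and is typical of activated macrophages. It lies on chromosome 1 (chr1:107511423-107535478, plus strand, GRCm38 in GENCODE M21), overlapping Serpinb10, which had 0 UMIs. Its UMIs numbered 87 in shRFP and 13 in shSdc1, at 22.6 and 3.24 CPM, a ratio of 0.143 (0.0734 to 0.258). All of them lay in monocyte/macrophage-like cells, and 72 and 7 of them in cluster 2. A UMI was found in 55 and 8 cells of the class, and in 0 of 1067 and 0 of 1738 T-like cells (exact upper limits 0.345% and 0.212%). In cluster 2 a UMI was found in 5.28% of the cells in shRFP and 1.70% in shSdc1, at median depths of 791.5 and 727 UMIs. Within cluster 2 the level was 94.6 and 34.7 CPM, a ratio of 0.366 (0.142 to 0.794), although 1 cell gave 42.9% of the 7 UMIs in shSdc1. Cluster 13, led by interferon-induced genes, went the other way, with 0 UMIs in shRFP and 4 in shSdc1, of which 1 cell gave 75.0%. With clusters weighted alike the ratio over all cells was 0.371.

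Across the 17 clusters, with both libraries summed, the genes whose log2(CPM + 10) followed Serpinb2 most closely were Inhba (Pearson's r = 0.88), which encodes a subunit of activin, the neutrophil chemokine Cxcl1 (r = 0.87) and the collagenase Mmp13 (r = 0.83). Clusters share libraries and depth, and these values describe likeness only. Its target urokinase (Plau) took 97.3% of its 988 UMIs from monocyte/macrophage-like cells and stood there at 183 CPM in shRFP and 222 in shSdc1, which is 1.21 times as much (1.07 to 1.38). The urokinase receptor Plaur was lower in the same cells, 633 against 240 CPM, at 0.380 times (0.344 to 0.420). In shRFP a Serpinb2 UMI was found in 5 of 377 monocyte/macrophage-like cells with a Plau UMI (1.33%) and in 50 of 2718 without one (1.84%), with overlapping intervals. In shSdc1 it was 0 of 350 with Plau (exact upper limit 1.05%) and 8 of 2288 without (0.350%). Cells with Plau were deeper, with medians of 984 and 954 UMIs against 697 and 640. Inhibitor and protease were thus found in the same class of cells.

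Slpi, secretory leukocyte protease inhibitor, blocks neutrophil elastase and cathepsin G. The gene lies at chr2:164354070-164389095 on the minus strand. It had 471 UMIs in shRFP and 125 in shSdc1, at 122 and 31.1 CPM, a ratio of 0.254 (0.207 to 0.311). By level it was a neutrophil gene: neutrophil-like cells had 1508 and 1803 CPM, but they were 30 and 21 cells, and 1 cell gave 43.8% of their UMIs in shSdc1. By number of molecules it was a monocyte/macrophage gene, since that class held 90.2% of the UMIs in shRFP and 60.0% in shSdc1. Its level in that class was 162 and 34.8 CPM, a ratio of 0.215 (0.166 to 0.276).

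The 2 clusters that carried most Slpi in shRFP also showed the difference within themselves. Cluster 2 had 347 and 153 CPM, a ratio of 0.442 (0.295 to 0.643), and cluster 5 had 297 and 58.6 CPM, a ratio of 0.197 (0.0399 to 0.593) that rests on 3 UMIs in shSdc1. In 3 other clusters the libraries were closer. In cluster 3 the level was 68.3 and 55.0 CPM, and in cluster 7, led by the heat shock genes Hspb1 and Hspa1a, it was 81.3 and 72.4 CPM. In cluster 13, led by the interferon-induced genes Ifit3 and Rsad2, it was 114 and 111 CPM. All 3 ratios had intervals that include 1. Cluster 12, led by Retnla, had 3 UMIs in shRFP and 0 in shSdc1. Cluster 0 had the lowest level of these clusters in shRFP, with Slpi UMIs in 0.438% of its cells in shRFP and in 0 of 1370 in shSdc1, an exact upper limit of 0.269%.

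Thinned to 300 UMIs per cell, with 97 and 165 shallower cells left out, 4.07% of monocyte/macrophage-like cells in shRFP and 0.768% in shSdc1 had a Slpi UMI, against 7.46% and 1.67% before thinning. T-like cells, which are not known to make it, had one in 0.375% and 0.0575% before thinning, at median depths of 393 and 437 UMIs against 722 and 668. The share in monocyte/macrophage-like cells was above that background in both libraries. B and plasma-like cells went the other way, with 64.0 and 252 CPM, yet those are 3 and 16 UMIs and 1 cell gave 56.2% of the 16. Plasmacytoid DC-like cells had 370 and 831 CPM from 6 and 15 UMIs, and the interval of that ratio, 0.823 to 7.06, includes 1. Weighted alike, the clusters gave a ratio of 0.568 over all cells and 0.462 in the monocyte/macrophage-like class. The genes most like Slpi over clusters were Trem1 (r = 0.84), an amplifier of inflammatory signals on myeloid cells, the receptor gene Hcar2 (r = 0.83) and the lectin gene Clec4e (r = 0.82).

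Spint1 encodes hepatocyte growth factor activator inhibitor 1, which sits in the membrane and blocks matriptase and the activator of hepatocyte growth factor. The gene lies at chr2:119237362-119249527, plus strand. It had 178 and 49 UMIs, at 46.2 and 12.2 CPM, a ratio of 0.264 (0.188 to 0.364). Conventional DC 2-like cells had the highest level, 210 and 124 CPM, with a UMI in 16.4% and 10.6% of 286 and 217 cells. Their own ratio was 0.590 (0.359 to 0.947). No Spint1 UMI was found in T-like, NK-like, B and plasma-like or plasmacytoid DC-like cells.

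Monocyte/macrophage-like cells gave 62.4% of the Spint1 UMIs in shRFP and 24.5% in shSdc1, at 42.2 and 5.57 CPM, a ratio of 0.132 (0.0662 to 0.240). In shRFP most of these lay in the same inflammatory clusters as Slpi, while in shSdc1 the class held 12 UMIs in all. Cluster 5 had 124 and 39.1 CPM and cluster 2 had 61.8 and 9.90 CPM, each with 2 UMIs in shSdc1. Cluster 7 had 16 UMIs in shRFP and 0 in shSdc1, and set against a floor of 3 counts its ratio was at most 0.573. In clusters 0 and 3, which filled the class in shSdc1, the level was at most 6.95 CPM in either library. With clusters weighted alike Spint1 stayed lower, at 0.432 over all cells and 0.266 in the monocyte/macrophage-like class. Its nearest genes over clusters were Afdn (r = 0.81), Ifitm2 (r = 0.80) and Ptpro (r = 0.80). Among its partners, the receptor Met, which binds hepatocyte growth factor, was at 17.1 and 9.28 CPM in monocyte/macrophage-like cells, a ratio of 0.543 (0.303 to 0.938), from 45 and 20 UMIs. Hepatocyte growth factor itself (Hgf) had 26 and 27 UMIs over all cells.

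**Figure D2:**
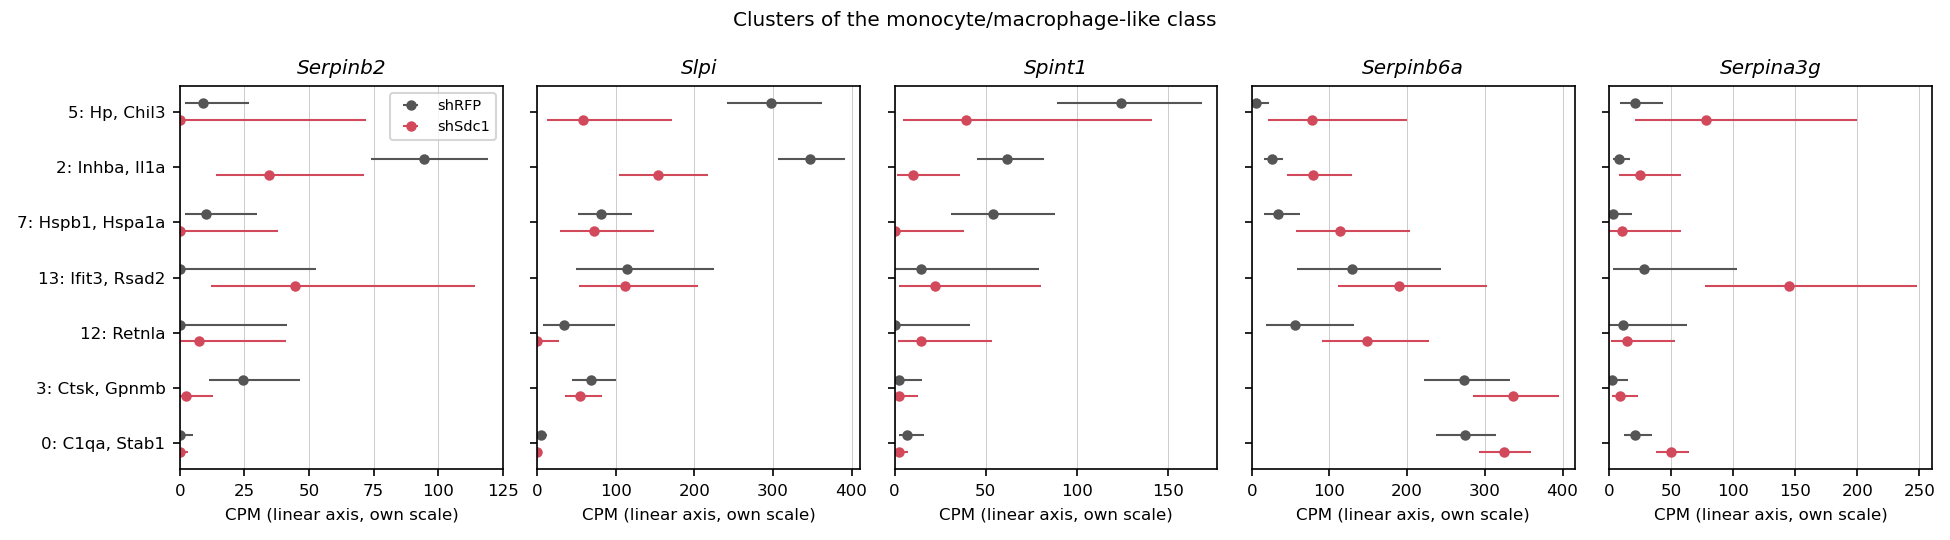
CPM (horizontal axis, linear, own scale per panel) of 5 inhibitor genes in the 7 clusters of the monocyte/macrophage-like class, named by number and leading genes, for shRFP (grey) and shSdc1 (red) with exact 95% Poisson intervals. Slpi and Spint1 are high in clusters 5 and 2 of shRFP, Serpinb2 in cluster 2, and Serpinb6a in clusters 3 and 0 of both libraries.

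Serpinb2, Slpi and Spint1 were each lower in shSdc1, but their patterns over the 17 clusters were not close. Pearson's r was 0.38 for Serpinb2 with Slpi, 0.32 for Serpinb2 with Spint1 and 0.23 for Slpi with Spint1. The 250 bases before their start sites are shown, from RefSeq on GRCm38.p6, 5′ to 3′ on the strand of the gene. Capitals mark matches, on either strand, to 5 motifs: AP-1 (TGANTCA), the interferon gamma element GAS (TTCNNNGAA), the interferon response element core ISRE (GAAANNGAA), the PU.1 core (AGAGGAAG) and NF-kB by its usual consensus. Of 27025 such windows, 6.87% held the AP-1 motif, 7.18% GAS, 7.16% ISRE, 3.64% the PU.1 core and 7.01% NF-kB. The window of Serpinb2 is chr1:107511173-107511422, that of Slpi chr2:164356508-164356757 and that of Spint1 chr2:119237110-119237359. The GENCODE model of Slpi reaches further upstream than this RefSeq start.
Serpinb2: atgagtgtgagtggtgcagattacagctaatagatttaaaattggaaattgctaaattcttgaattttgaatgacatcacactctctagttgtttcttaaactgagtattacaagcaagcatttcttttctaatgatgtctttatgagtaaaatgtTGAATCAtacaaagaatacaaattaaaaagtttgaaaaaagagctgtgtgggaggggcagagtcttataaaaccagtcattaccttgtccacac
Slpi: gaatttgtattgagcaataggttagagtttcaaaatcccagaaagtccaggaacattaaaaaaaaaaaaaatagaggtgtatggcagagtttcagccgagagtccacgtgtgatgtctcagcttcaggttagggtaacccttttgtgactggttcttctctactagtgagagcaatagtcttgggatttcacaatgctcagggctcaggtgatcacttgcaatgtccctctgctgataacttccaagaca
Spint1: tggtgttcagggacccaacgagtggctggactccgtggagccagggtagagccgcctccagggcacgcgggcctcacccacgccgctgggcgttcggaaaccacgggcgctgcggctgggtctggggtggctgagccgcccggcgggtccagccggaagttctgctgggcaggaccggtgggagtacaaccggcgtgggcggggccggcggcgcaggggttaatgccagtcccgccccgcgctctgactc
Serpinb2 had 1 match, an AP-1 motif from 94 to 88 bases before its start. Slpi and Spint1 had 0, which says only that these letters are not in these windows.

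Serpinb6a inhibits cathepsin G and related granule proteases inside the cell. It lies at chr13:33917918-34002794, minus strand, and overlaps exons of Ripk1, Nqo2 and 1110046J04Rik on the opposite strand, so without a stated strand rule reads there are uncertain. It had the most UMIs of any member in both libraries summed, 419 in shRFP, where Slpi had more, and 731 in shSdc1, at 109 and 182 CPM, a ratio of 1.67 (1.48 to 1.89). Of these, 81.9% and 80.2% came from monocyte/macrophage-like cells and 17.2% and 17.4% from T-like cells. Conventional DC, by contrast, had almost none: in conventional DC 1-like cells 0 of 143 cells (exact upper limit 2.55%) and 1.88% of 160 had a UMI, at a median depth of 1020 and 1288.5 UMIs. In the monocyte/macrophage-like class 7.85% and 14.6% had one, at 722 and 668 UMIs.

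The ratio of Serpinb6a was larger over the class than in the clusters that held most of it. Its level in the monocyte/macrophage-like class was 130 and 272 CPM, a ratio of 2.09 (1.82 to 2.39). Clusters 0 and 3, in which the gene was highest, differed little: 274 and 325 CPM in cluster 0, a ratio of 1.18 (0.994 to 1.42), and 273 and 337 CPM in cluster 3, a ratio of 1.23 (0.95 to 1.61). Clusters 2 and 7 had little of it in shRFP and a higher CPM in shSdc1, on too few UMIs for a call. In cluster 2 the level was 26.3 and 79.2 CPM from 20 and 16 UMIs, a ratio of 3.01 (1.46 to 6.12). In cluster 7 it was 33.9 and 114 CPM from 10 and 11 UMIs, a ratio of 3.36 (1.30 to 8.83). Thinned to 300 UMIs per cell, 0.485% (0.132% to 1.24%) and 1.32% (0.272% to 3.80%) of cluster 2 cells had a Serpinb6a UMI. In cluster 7 it was 1.56% (0.576% to 3.37%) and 3.42% (0.939% to 8.52%). Intervals of the libraries overlapped in both clusters. With clusters weighted alike the class ratio was 1.35 and the ratio over all cells 1.26, both under 1.5-fold. Over clusters, Xylt2 (r = 0.89), an enzyme that starts glycosaminoglycan chains, the adaptor subunit gene Ap2m1 (r = 0.84) and Fez2 (r = 0.84) were most like it.

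T-like cells as a whole had Serpinb6a at 129 and 119 CPM, a ratio of 0.923 (0.686 to 1.25). Among their sub-clusters the CD8 T-like cells stood out in shRFP, with 284 CPM against 117 in shSdc1, a ratio of 0.412 (0.241 to 0.699) from 33 and 29 UMIs. Cycling T-like cells had 86.8 and 124 CPM and regulatory T-like cells 155 and 118 CPM, with intervals of the ratio that include 1. So within T-like cells no sub-cluster with 50 UMIs or more was higher in shSdc1 beyond counting error, while the CD8 T-like one was lower.

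Serpina3g, also called Spi2A, inhibits cathepsin B and other lysosomal and serine proteases, and is known in lymphocytes from its induction on activation. It lies at chr12:104236245-104241939, plus strand. Its UMIs numbered 166 and 384, at 43.1 and 95.7 CPM, a ratio of 2.22 (1.84 to 2.68). T-like cells gave 57.2% and 51.6% of them, at 170 and 185 CPM, a ratio of 1.09 (0.85 to 1.41). NK-like cells had a similar level, 166 and 259 CPM from 7 and 39 UMIs. In both of these classes the interval of the ratio included 1, while T-like and NK-like cells were a larger part of shSdc1. With clusters weighted alike the ratio over all cells was 1.37, under 1.5-fold.

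CD8 T-like cells had the highest Serpina3g level of the named T-like sub-clusters, 412 CPM in shRFP and 262 in shSdc1, a ratio of 0.634 (0.430 to 0.941). Regulatory T-like cells had 170 and 207 CPM, and cycling T-like cells had 134 and 141. Naive T-like cells had the lowest level of the 4 in shRFP, 29.9 CPM, and in shSdc1, 85.7 CPM, from 4 and 7 UMIs. By CPM alone, CD8 and naive T-like cells were at the ends of this order in both libraries. In shSdc1 each of them had a counting interval that overlapped that of the next sub-cluster.

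Outside lymphocytes Serpina3g was higher in shSdc1 in monocyte/macrophage-like cells. Its CPM was also higher in conventional DC 1-like cells, on fewer than the 50 UMIs needed for a call. Conventional DC 1-like cells, known for presenting antigen to CD8 T cells, had 44.2 and 182 CPM, a ratio of 4.11 (1.82 to 10.9), from 7 and 39 UMIs in 6 of 143 and 21 of 160 cells. Monocyte/macrophage-like cells had 12.5 and 39.9 CPM, a ratio of 3.18 (2.11 to 4.91). Weighted alike, their clusters gave 2.82, and cluster 0 by itself gave 2.39 (1.34 to 4.55), at 20.9 and 49.9 CPM. The interferon-led cluster 13 had 28.5 and 145 CPM from 2 and 13 UMIs. Conventional DC 2-like cells had 43.4 and 55.0 CPM, and migratory DC-like cells 69.1 and 42.8 CPM from 7 and 5 UMIs, both with an interval of the ratio that includes 1. Thinned to 300 UMIs, the share of monocyte/macrophage-like cells with a Serpina3g UMI was 0.50% and 1.01%. In conventional DC 1-like cells it was 2.11% (0.438% to 6.05%) and 5.06% (2.21% to 9.73%). The intervals of the 2 libraries overlapped in both classes. No named class of over 100 cells per library was free of Serpina3g UMIs. Free RNA from lymphocytes, which were more frequent in shSdc1, was not measured separately and its part in these low levels was not tested.

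Its target cathepsin B (Ctsb) was at 3426 and 5223 CPM in monocyte/macrophage-like cells, a ratio of 1.52 (1.48 to 1.57). There the lysosomal proteases Ctss and Ctsl had ratios of 1.47 and 0.961. The genes most like Serpina3g over clusters were Nsmaf (r = 0.92), Dennd1b (r = 0.88) and the replication factor gene Rfc2 (r = 0.88). Its window of 250 bases before the RefSeq start held 1 GAS match, from 33 to 25 bases before the start, and 1 NF-kB match from 85 to 76. Its relative Serpina3f, with 19 and 23 UMIs, is close enough in sequence that reads may be split between them or lost.

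**Figure D3:**
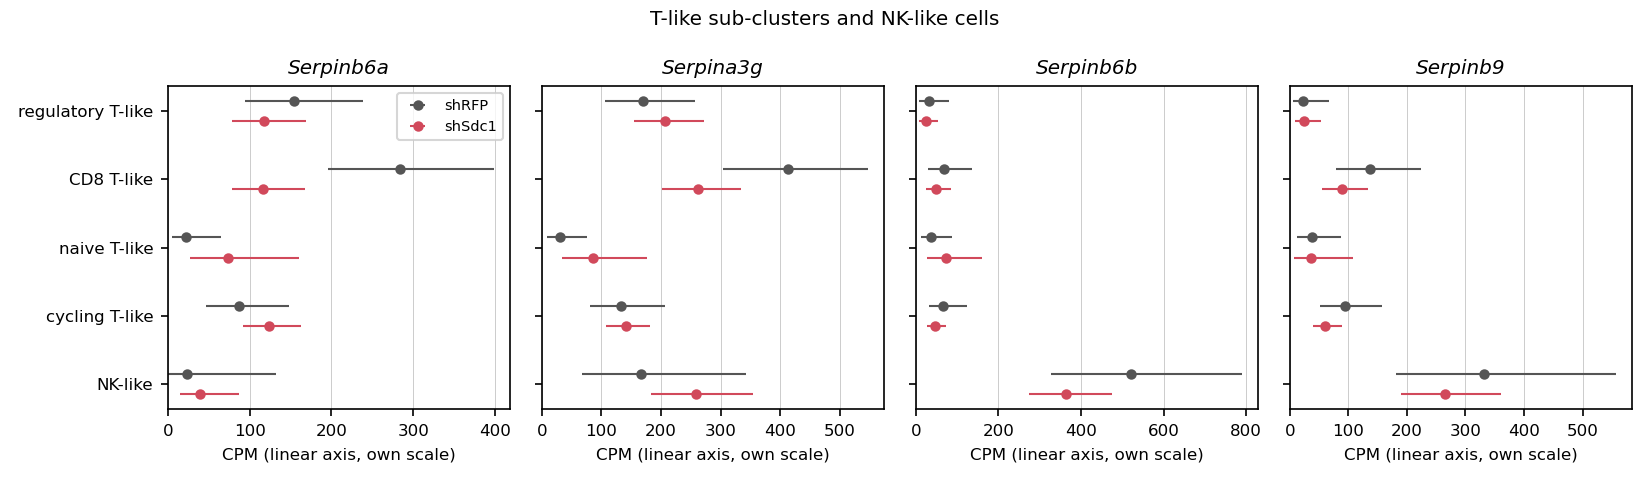
CPM (horizontal axis, linear, own scale per panel) of 4 inhibitor genes in the named T-like sub-clusters and in NK-like cells, for shRFP (grey) and shSdc1 (red), with exact 95% Poisson intervals. Serpinb6a and Serpina3g are highest in the CD8 T-like cells of shRFP among T-like sub-clusters, while Serpinb6b and Serpinb9 are highest in NK-like cells.

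Serpinb6b and Serpinb9 are neighbours on chromosome 13, Serpinb6b at chr13:32965209-32979067 and Serpinb9 at chr13:33003250-33017957, both on the plus strand. They lie 24.2 kb apart with 0 annotated coding genes between them. Serpinb9 is the inhibitor of granzyme B, with which cytotoxic and antigen-presenting cells are known to protect themselves, and Serpinb6b is known in mice as an inhibitor of granzyme A. The pair had a similar pattern across the 17 clusters (r = 0.90), and each was the gene most like the other among 7304 compared. Further genes like them were Pik3r1 (r = 0.87 with Serpinb6b and 0.89 with Serpinb9), Sema6d (r = 0.86 with Serpinb6b) and Inpp5b (r = 0.89 with Serpinb9).

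Migratory DC-like cells, led by Fscn1, Ccl22 and Ccr7 and known to carry antigen to lymph nodes, had the highest level of both. Serpinb6b stood there at 1204 and 1506 CPM, a ratio of 1.25 (0.987 to 1.59), and Serpinb9 at 996 and 975 CPM, a ratio of 0.979 (0.742 to 1.29). These cells were 2.91% and 2.96% of all cells, and they held 64.6% and 58.1% of the Serpinb6b UMIs and 54.3% and 46.3% of those of Serpinb9. A Serpinb6b UMI was found in 42.8% and 49.0% of them, and a Serpinb9 UMI in 42.1% and 38.2%. As background, monocyte/macrophage-like cells, of similar depth, had a Serpinb6b UMI in 0.0646% and 0.265% and a Serpinb9 UMI in 0.808% and 0.796% of cells. Thinned to 300 UMIs, the migratory DC-like shares were 26.6% and 32.9% for Serpinb6b and 21.6% and 19.1% for Serpinb9.

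The pair also shared cells. Among migratory DC-like cells with a Serpinb6b UMI, 37 of 62 in shRFP (59.7%, 46.4% to 71.9%) and 44 of 77 in shSdc1 (57.1%, 45.4% to 68.4%) had a Serpinb9 UMI. Without a Serpinb6b UMI it was 24 of 83 (28.9%, 19.5% to 39.9%) and 16 of 80 (11.9% to 30.4%). The intervals did not overlap in either library. Cells with Serpinb6b were deeper, with medians of 701.5 and 747 UMIs against 616 and 619.5, and the part of this depth in the difference was not tested.

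NK-like cells came second for both genes, with 521 and 365 CPM of Serpinb6b and 332 and 265 CPM of Serpinb9. T-like cells had less than NK-like cells of both, 60.8 and 42.1 CPM of Serpinb6b and 69.7 and 57.1 CPM of Serpinb9. All 4 of these ratios were under 1, and all had intervals that include 1. For Serpinb6b, conventional DC 1-like cells stood below T-like cells in shRFP, at 50.5 CPM, and above them in shSdc1, at 88.5 CPM. Granzyme B (Gzmb), the enzyme that Serpinb9 blocks, had 315 and 894 UMIs over all cells, a ratio of 2.72 (2.39 to 3.1), and stood at 483 and 588 CPM in T-like cells, a ratio of 1.22 (1.05 to 1.41). In shRFP 13 of 134 T-like cells with a Gzmb UMI had a Serpinb9 UMI (9.70%, 5.27% to 16.0%), against 20 of 933 without (2.14%, 1.31% to 3.29%). In shSdc1 the shares were 4.75% (2.68% to 7.71%) and 2.60% (1.84% to 3.57%), with overlapping intervals. In NK-like cells of shRFP the shares were 2 of 17 with Gzmb (11.8%) and 10 of 68 without (14.7%), and in those of shSdc1 21.0% and 8.61%, each pair with overlapping intervals. Other inhibitors also had higher shares with Gzmb. For Serpina3g it was 14.2% of T-like cells with Gzmb and 5.25% without in shRFP, and 15.8% and 7.67% in shSdc1. Neither pair of intervals overlapped. For Serpinb6b it was 9 of 134 and 14 of 933 T-like cells of shRFP, without overlap. In T-like cells of shSdc1 (3.80% and 1.90%) and NK-like cells of shRFP (29.4% and 13.2%) its intervals overlapped. In NK-like cells of shSdc1 they did not (24.2% and 9.09%). T-like cells with Gzmb were deeper as well, 560 and 630.5 against 382 and 406.5 UMIs. The part of depth was not tested.

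Over all cells Serpinb6b had 189 and 303 UMIs, at 49.1 and 75.5 CPM, a ratio of 1.54 (1.28 to 1.85). Serpinb9 had 186 and 246 UMIs, at 48.3 and 61.3 CPM, a ratio of 1.27 (1.04 to 1.54). Serpinb6b was under 1.5-fold with other scalings, 1.39 by TMM and 1.40 by median of ratios. Weighted alike, the clusters gave 1.07 for Serpinb6b and 0.920 for Serpinb9. NK-like cells were 1.71% of shRFP and 5.10% of shSdc1, and T-like cells also had a larger share there. Conventional DC 1-like cells had 50.5 and 88.5 CPM of Serpinb6b, from 8 and 19 UMIs, with an interval that includes 1.

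The windows of the pair are shown because these neighbours were high in the same cells: chr13:32965011-32965260 for Serpinb6b and chr13:33004291-33004540 for Serpinb9, with the same motifs in capitals. Both precede the RefSeq starts. The GENCODE model of Serpinb9 starts further upstream, at 33003250, so its window lies inside that model. The GENCODE model of Serpinb6b starts at 32965209, inside its window.
Serpinb6b: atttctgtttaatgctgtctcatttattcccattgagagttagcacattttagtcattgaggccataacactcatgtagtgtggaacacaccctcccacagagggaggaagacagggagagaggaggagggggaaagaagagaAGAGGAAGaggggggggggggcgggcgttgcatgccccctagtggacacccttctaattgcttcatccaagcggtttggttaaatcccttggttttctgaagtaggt
Serpinb9: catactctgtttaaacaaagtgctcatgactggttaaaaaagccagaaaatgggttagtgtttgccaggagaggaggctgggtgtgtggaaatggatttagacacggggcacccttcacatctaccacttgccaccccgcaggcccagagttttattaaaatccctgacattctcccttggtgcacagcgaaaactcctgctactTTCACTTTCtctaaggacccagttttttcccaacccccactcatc
Serpinb6b had 1 match, a PU.1 core from 107 to 100 bases before the start, and Serpinb9 had 1, an ISRE core on the opposite strand from 45 to 37 bases before it. No motif of the 5 was found in both windows. Serpinb6a, which shares their chromosome but not their pattern (r = -0.03 with Serpinb6b and -0.0037 with Serpinb9), had a GAS match and an ISRE match in its own window. These near relatives may exchange or lose reads in counting, and Serpinb9b, another copy nearby, had 9 and 10 UMIs.

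Serping1, the C1 inhibitor, which blocks the first proteases of the complement cascade, lies at chr2:84765387-84775444, minus strand. It was listed with 0 UMIs in both libraries, in kept cells and in every deposited barcode. Its target gene C1s1 was also at 0 in the kept cells of both, whereas its target gene C1ra had 19 UMIs in shRFP and 30 in shSdc1. If reads of Serping1 could be counted, which was not tested, 3 counts would be 0.779 CPM in shRFP and 0.747 in shSdc1. No level or ratio is given for it.

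**Figure D4:**
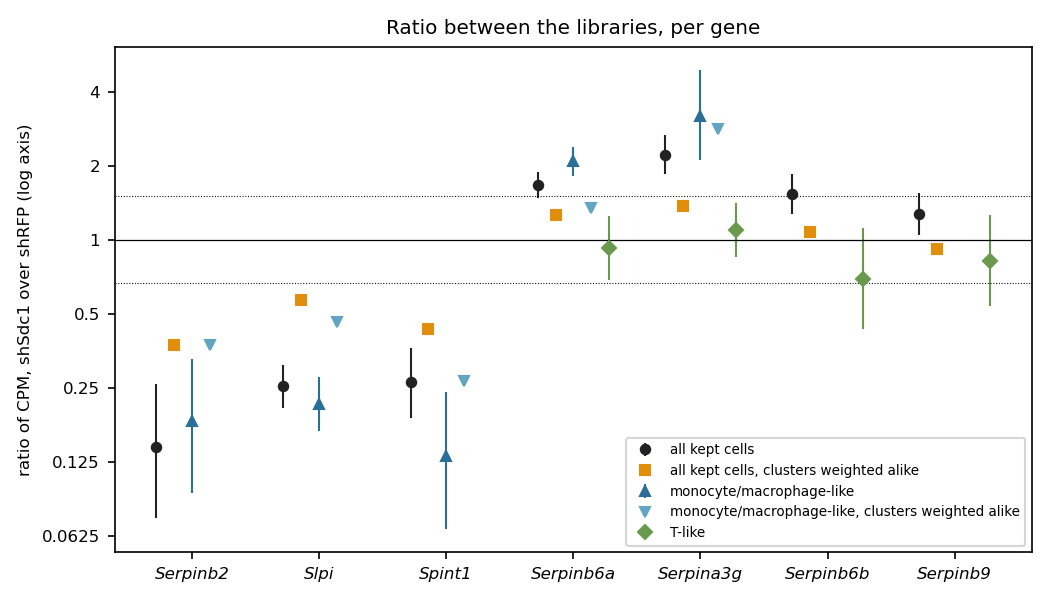
Ratio of CPM, shSdc1 over shRFP (vertical axis, log scale), for each inhibitor gene. Summed ratios are drawn over all kept cells and in monocyte/macrophage-like and T-like cells. Ratios with clusters weighted alike are drawn over all kept cells and in monocyte/macrophage-like cells only. Bars are exact 95% intervals for counting error, drawn for the summed ratios, and dotted lines mark 1.5-fold either way. Serpinb2, Slpi and Spint1 stay under the lower dotted line in each, whereas Serpinb6a, Serpinb6b and Serpina3g over all cells come to between 1.07 and 1.37 once clusters are weighted alike.

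Within classes the members again lay on both sides. In the monocyte/macrophage-like class 5 members had at least 50 UMIs. Of these, 3 were lower (Serpinb2, Slpi and Spint1), against 7.27% of 7495 genes, and 2 were higher (Serpinb6a and Serpina3g), against 10.2%. In T-like cells 4 members were tested, Serpinb6a, Serpinb6b, Serpinb9 and Serpina3g. Of these 0 were higher, against 8.39% of 4923 genes, and 0 were lower, against 3.58%. Here too the members had been chosen with earlier results of these data known, so the shares are no test of the family. With clusters weighted alike the count over all cells became 0 higher and 3 lower. In the monocyte/macrophage-like class it became 1 higher, Serpina3g, and 3 lower. The share of all genes past 1.5-fold was not computed with this weighting, so these counts have no background. Serpinb2, Slpi and Spint1 were lower in shSdc1 as summed and with clusters weighted alike, though not in every cluster. Those higher over all cells were under 1.5-fold once clusters were weighted alike. The weighted ratios have no interval of their own, and were computed for the main clusters only. For Serpinb2 and Spint1 they rest on few UMIs in shSdc1. Differences of mix inside clusters were not tested.

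Other serine protease inhibitors were sparse. Of 46 in the files, 5 had at least 50 UMIs. Spint2, the relative of Spint1, was at 23.6 and 41.9 CPM over all cells, a ratio of 1.77 (1.36 to 2.31), with 53.3% of its UMIs in T-like cells, where its ratio was 0.921. Serpinb8 (ratio 0.691), Serpinb1a (0.980) and the abundant Wfdc17 (0.753), a whey acidic protein gene like Slpi, were within 1.5-fold over all cells. So 2 of 5 were higher and 0 were lower. Their log2 ratios had a median of -0.03.

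Of 21 proteases on which these inhibitors are known to act, 5 had at least 50 UMIs, and 1, Gzmb, was higher over all cells, with none lower. The neutrophil protease gene Prtn3 had 20 UMIs in shRFP and 1 in shSdc1, too few for a call, and is named here after its values were seen. Of 6 receptors and partners 5 had at least 50 UMIs. Plaur and Met were lower, while Anxa2 (ratio 0.768), S100a10 (1.01) and Hgf (0.996) were within 1.5-fold.

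Markers of cells outside the sort had few UMIs among the 3848717 and 4014220 of all kept cells. The 5 endothelial markers summed to 111 and 110 UMIs, with Cldn5 and Emcn at 0. Of 6 melanoma markers, Sox10 was at 0 in both, and the list summed to 36 and 119 UMIs. The 5 keratinocyte markers summed to 3 and 13 UMIs, with Krt5, Krt14 and Krt1 at 0, and the 6 fibroblast markers to 4 and 6. Keratinocytes and other epithelial cells are known sources of Slpi, Spint1 and Serpinb2. The part of any of these cells in the results was not tested. Sdc1 itself had 102 and 76 UMIs in these leukocytes, which do not carry the hairpin, so it does not check the knockdown.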

How the data were processed

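The deposited matrices hold unnormalized UMI counts, which the authors produced using Cell Ranger 6.1.1 (per the file headers) on mm10 (per the submitters' processing notes). The sources used here name no annotation release. Barcodes with at least 200 genes and under 10% mitochondrial UMIs passed (5225 in shRFP, 5576 in shSdc1). The automatic threshold of Scrublet, run in scanpy 1.11.5, marked 2 and 4 of them, so the highest scores were removed at 0.8% per 1000 barcodes, 242 and 263. Counts were scaled to 10000 per cell, and 2000 variable genes, 30 components, 15 neighbours and Leiden resolution 1 gave the clusters of both libraries together, without integration and without any gene of the inhibitor, protease and partner lists. A cluster took the class with the highest median log2 fold of its markers over the median cluster, of at least 1, with 3 markers at 2-fold. This scoring was set after the data were seen. T-like cells were clustered again.

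UMIs were summed per library and class. Intervals are exact Poisson, conditional binomial or Clopper-Pearson at 95%. A gene was called higher or lower at 1.5-fold when the libraries summed to 50 UMIs or more. The floor for a count of 0 was 3 counts. Calls and intervals were tried on simulated Poisson counts, the model on which the intervals rest. The simulation had no spread between cells, tumors or mice, so it cannot check for that spread. The members and lists were chosen with earlier results of these data known. Genes named are the members, of each list those with 50 UMIs (up to 6), and for each member the 3 genes most like it over clusters with at least 50 cells. Positions came from GENCODE M21 (GRCm38, the build of mm10), and upstream windows from RefSeq for 7 of 8 members. Of the list of other inhibitors, 1 gene that enters the counts is not reported here. Other scalings, filters and weights are in the closing section.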

Additional observations from a re-analysis of the deposited data

How the results depend on the processing

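Under up to 9 alternatives the direction of every member called over all cells was kept. Over all cells, clusters weighted alike gave 0.371 for Serpinb2, 0.568 for Slpi, 0.432 for Spint1, 1.26 for Serpinb6a, 1.07 for Serpinb6b, 0.920 for Serpinb9 and 1.37 for Serpina3g, so 0 members were higher by 1.5-fold over all cells and 1 in monocyte/macrophage-like cells. With at least 500 genes per cell Serpinb6b came to 2.18 and Serpinb9 to 1.60, the latter then past 1.5-fold; the cause was not tested. In T-like cells 1 member was lower under median-of-ratios scaling, under clusters weighted alike and under a limit of 5% mitochondrial UMIs, 1 with at least 500 genes per cell (Serpinb9, 0.560), and 1 with no minimum on UMIs. The first of these was Serpinb6b, at 0.662, and it was 0.664 under equal weights. TMM scaling in edgeR 4.0.16 moved all log2 ratios over all cells by -0.14 and median-of-ratios scaling by -0.13; Serpinb6b was then at 1.39 and 1.40, and at 1.33 as the mean of per-cell CPM, and no other call over all cells changed under these 3. Serpinb6a gave 1.35 in monocyte/macrophage-like cells with clusters weighted alike. The share of all genes past 1.5-fold was computed for the main setting only. Counts of members under the alternatives therefore have no background. No paired analysis was possible because each group is 1 library, and none could be left out. With a median of 649 and 593 UMIs per cell, a missing UMI in a cell does not show that the gene is off, and ratios from under 20 UMIs have intervals several-fold wide.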
